A study of Mus musculus with 6 samples.

Results

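The enzymes described are those that add glucuronic acid (Ugt1 and Ugt2 families) or sulphate (Sult) to small molecules, those that oxidise alcohols (Adh), aldehydes (Aldh) or nitrogen- and sulphur-containing compounds and ketones (Fmo), and the epoxide hydrolases (Ephx). Members were all genes of the platform annotation whose symbol starts with one of these family names, Adh and Fmo being followed by a digit, and only probe sets annotated to 1 gene alone were used. This gave 44 genes, measured by 63 probe sets, of 12393 genes on the array. Of the 44, 32 genes with 43 probe sets passed a filter on low signal, set on the mean of all 6 arrays. The passing of 3 genes hung on 1 group: without BDL_GW4064, Aldh1a3 would have been left out, as would Sult1c2 without Sham_Vehicle and Sult5a1 without either of these groups. A difference was built into their passing, so counts are also given over the other 29 genes. No Ugt1 gene had a probe set of its own: 3 probe sets were annotated to several Ugt1a genes together and were left unnamed.

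In this chemistry an alcohol dehydrogenase turns an alcohol into an aldehyde, an aldehyde dehydrogenase turns the aldehyde into an acid, and a transferase then attaches a sugar acid or a sulphate group, which makes the product more soluble and ready for export. Enterocytes carry these enzymes at the border with the gut contents, where they act on dietary compounds, drugs, retinoids, steroids and bile acids. The bile acid receptor FXR and its relatives PXR, CAR and PPARA are known regulators of several of them.

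All groups were wild type male mice of C57BL/6:129Sv mixed strain, 8 to 10 months old, and ileum was measured on 2 arrays in each of 3 groups. Sham_Vehicle animals had a sham operation, in which the bile duct was handled and not tied, and were given the vehicle of Tween80 and methylcellulose by gavage. BDL_Vehicle animals had the duct tied off, which keeps bile out of the gut, and the same vehicle. BDL_GW4064 animals had the ligation and the synthetic FXR agonist GW4064 at 100 mg/kg/day. Dosing by gavage was daily and covered 2 days ahead of the operation and 5 days following it. These are bulk tissue samples, so fewer cells of a type and less RNA per cell cannot be told apart. Nothing in the labels states that 2 arrays of 1 group are 2 mice; the p-values therefore reflect the spread among these arrays alone, and that spread may be technical.

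The values were MAS5 signals on a linear scale with a common trimmed mean of 200.1 in every array. All 16 annotated enterocyte markers passed the filter and their summed signal lay between 46722 and 55667 in every array. A ribosomal RNA control (18S, 5' end) split the arrays into a high set, with signals of 67.3 to 88.7 (Sham_Vehicle and BDL_Vehicle replicate 1), and a low set, with 8.6 to 13.3 (BDL_Vehicle replicate 2 and BDL_GW4064). Only BDL_Vehicle lies in both sets. A fit with the array set as an added term was also run. Its set term rests on the difference between the 2 BDL_Vehicle arrays alone. For ligation its log2 fold changes therefore equal those without BDL_Vehicle replicate 2. For GW4064 in ligated mice they equal those without BDL_Vehicle replicate 1. Its values against Sham_Vehicle also rest on that difference between single arrays. This fit is quoted where it moved, by over 1.5 times, a median or a log2 fold change printed for the probe set that represents a member gene. Marker levels of other tissues also differed between arrays. The 11 fibroblast and matrix markers summed to 1986 and 2770 in Sham_Vehicle, 1648 and 2193 in BDL_Vehicle, and 4548 and 5335 in BDL_GW4064. The 9 tested smooth muscle markers summed to 14834 in BDL_GW4064 replicate 2 and to between 1748 and 2365 in the other arrays.

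The first comparison asked how ligation changed these enzymes. None of the 43 member probe sets passed limma at an adjusted p of 0.05, and the smallest adjusted p was 0.646. Among all 13575 probe sets tested, 0.0295% passed. At an unadjusted p under 0.05 there were 8 member probe sets, against 6.37% of all probe sets; the 8 became 4 without Sham_Vehicle replicate 2 and 5 with each array centred on its median. Among the 32 genes, each taken from its probe set with the highest mean signal, 24 had lower and 8 higher fitted values, while 52.1% of all 7919 tested genes were lower and 47.9% higher. Of the members, 6 lower and 0 higher genes had an unadjusted p under 0.05, against 3.06% and 2.95% of all genes. With median centring the split was 20 lower and 12 higher, and 57.3% of all genes were higher; without Sham_Vehicle replicate 2 it was 19 and 13. Over the 29 genes 21 were lower and 8 higher, with 11 lower and 2 higher without overlap. Of these 29, 6 lower and 0 higher genes had an unadjusted p under 0.05. The arrays of the 2 groups did not overlap for 13 genes that were lower in BDL_Vehicle (19.7% of all genes) and for 2 that were higher (18.1% of all genes). The median log2 fold change was -0.06 for the members and -0.01 for all genes. With the array set in the fit the medians were -0.18 and -0.001.

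The second comparison asked what GW4064 did in ligated mice. Again 0 member probe sets passed (smallest limma adjusted p = 0.32), where 0.0516% of all probe sets did. At an unadjusted p under 0.05 there were 9, against 7.48% of all probe sets, 5 without BDL_GW4064 replicate 2 and also 5 once the array set was added to the fit, and 4 with a filter at 60%, which tests fewer probe sets. Fitted values were higher in 17 and lower in 15 genes, against 50.4% higher and 49.6% lower among all genes. With median centring they were higher in 15 and lower in 17, and 38.7% of all genes were higher. The split was 24 higher and 8 lower without BDL_GW4064 replicate 2, and 22 and 10 without BDL_Vehicle replicate 2. Over the 29 genes 15 were higher and 14 lower, with 11 higher and 2 lower without overlap. An unadjusted p under 0.05 was found for 7 higher and 1 lower genes, against 5.06% and 2.41% of all genes. Over the 29 genes these counts were 6 and 1. Arrays did not overlap for 13 genes that were higher with GW4064 (19.1% of all genes) and for 2 that were lower (16.7% of all genes). The member median was 0.02 and that of all genes 0.00. With the array set in the fit they were 0.11 and 0.003. Both comparisons use the same BDL_Vehicle arrays, so a low BDL_Vehicle array moves them in opposite directions.

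Set against Sham_Vehicle, the BDL_GW4064 arrays gave 0 member probe sets at an adjusted p under 0.05 (smallest limma adjusted p = 0.176; 0.0368% of all probe sets passed) and 13 at an unadjusted p under 0.05, where all probe sets gave 16%. That count was 6 without Sham_Vehicle replicate 2 or without BDL_GW4064 replicate 2, and 3 once the array set was added to the fit. Of the 32 genes, 16 were higher and 16 lower, against 51.8% and 48.2% of all genes. This even split hung on single arrays: it was 11 higher and 21 lower without BDL_GW4064 replicate 1, and 21 and 11 without BDL_GW4064 replicate 2. Over the 29 genes 15 were higher and 14 lower. The member median was -0.002 and that of all genes 0.01. With the array set in the fit they were -0.19 and 0.02. An unadjusted p under 0.05 was found for 5 higher and 5 lower genes, against 7.15% and 7.08% of all genes. Over the 29 genes these counts were 4 and 4. Arrays did not overlap for 8 higher (25% of all genes) and 9 lower genes (24% of all genes), and over the 29 genes for 7 and 8.

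**Figure D1:**
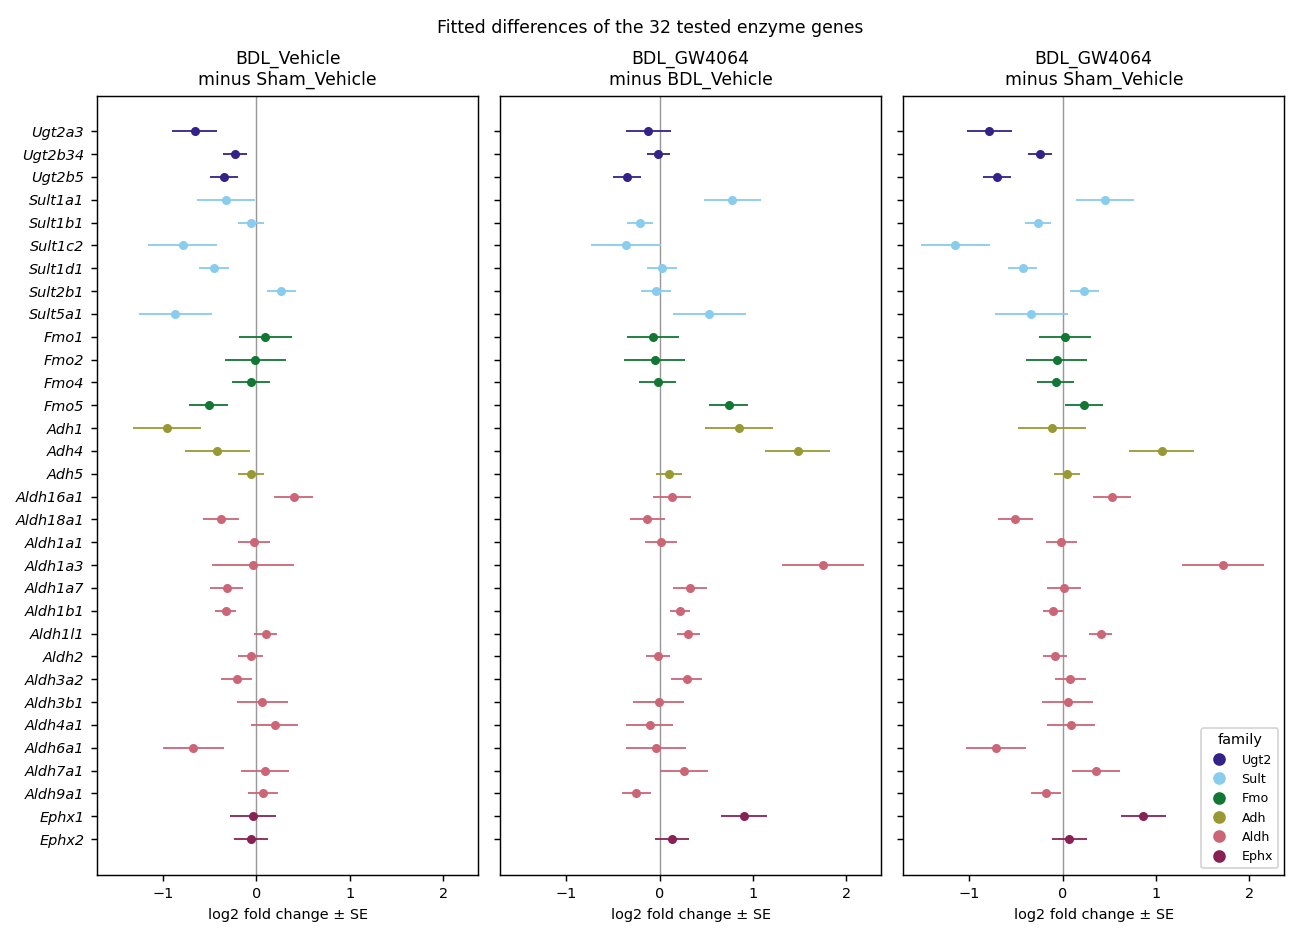
Fitted log2 fold changes (horizontal axis, with SE bars) of the 32 tested enzyme genes in the 3 comparisons, coloured by family. Points of the Ugt2 genes lie left of 0 in every panel, and Aldh1a3, Adh4 and Ephx1 lie farthest right in the panels with GW4064; none passed the adjusted threshold, and Aldh1a3 passed the signal filter only through BDL_GW4064.

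Among the glucuronosyltransferases, 3 of 6 Ugt2 genes passed the filter, and all 3 were lower in BDL_Vehicle than in Sham_Vehicle with no overlap of arrays, as were 19.7% of all genes. Ugt2b5 read 290.1 and 289.4 in Sham_Vehicle, 218.4 and 235.2 in BDL_Vehicle, and 167.9 and 186.1 in BDL_GW4064. Its 3 groups did not overlap, and it was the 1 member gene with an unadjusted p under 0.05 in every comparison. The log2 fold change was -0.35 ± 0.15 (SE) for ligation, -0.35 ± 0.15 for GW4064 in ligated mice and -0.70 ± 0.15 for BDL_GW4064 against Sham_Vehicle, with limma adjusted p of 0.751, 0.655 and 0.176. Ugt2a3 read 287.9 and 401.8 in Sham_Vehicle, 202.4 and 225.5 in BDL_Vehicle, and 240.6 and 159.3 in BDL_GW4064. Both ligated groups lay below sham and overlapped each other. Its log2 fold change was -0.66 ± 0.24 (SE) after ligation and -0.78 ± 0.24 for BDL_GW4064 against Sham_Vehicle (limma adjusted p = 0.751 and 0.215). The first was -0.42 without Sham_Vehicle replicate 2 and the second -0.49 without BDL_GW4064 replicate 2. Ugt2b34, the Ugt2 gene with the highest mean signal, read 2832.9 and 3168 in Sham_Vehicle, 2373.9 and 2746.7 in BDL_Vehicle, and 2733.8 and 2345 in BDL_GW4064. Its second probe set was also below sham in both ligated groups. Ugt2b enzymes are close copies of each other, so a probe set may pick up a relative.

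Promoter sequence was compared among the Ugt2b genes; the promoters shown, the motifs and the chromosome neighbourhood below were chosen after the signals were seen, and none was tested. The promoter of Ugt2b5 (GRCm38.p6, chr5:87140291-87140590, minus strand, from RefSeq, 250 bases before to 50 after the start) is shown with Ugt2b37 (chr5:87254739-87255038, minus strand) and Ugt2b38 (chr5:87424154-87424453, minus strand), whose signals lay at or under 5.6 in every array. Capitals mark the hexamer AGGTCA, which nuclear receptors bind.
Ugt2b5: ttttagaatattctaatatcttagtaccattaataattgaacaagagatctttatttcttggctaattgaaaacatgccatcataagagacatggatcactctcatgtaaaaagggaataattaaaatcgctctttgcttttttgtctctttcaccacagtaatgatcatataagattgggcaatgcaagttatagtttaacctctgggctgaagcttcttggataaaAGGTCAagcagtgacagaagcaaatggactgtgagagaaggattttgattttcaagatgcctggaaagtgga
Ugt2b37: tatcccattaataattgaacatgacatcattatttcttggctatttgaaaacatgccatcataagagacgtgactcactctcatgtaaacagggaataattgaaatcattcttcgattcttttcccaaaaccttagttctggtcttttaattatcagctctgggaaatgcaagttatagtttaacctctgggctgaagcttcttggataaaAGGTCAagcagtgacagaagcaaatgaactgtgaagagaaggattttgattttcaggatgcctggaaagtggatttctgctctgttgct
Ugt2b38: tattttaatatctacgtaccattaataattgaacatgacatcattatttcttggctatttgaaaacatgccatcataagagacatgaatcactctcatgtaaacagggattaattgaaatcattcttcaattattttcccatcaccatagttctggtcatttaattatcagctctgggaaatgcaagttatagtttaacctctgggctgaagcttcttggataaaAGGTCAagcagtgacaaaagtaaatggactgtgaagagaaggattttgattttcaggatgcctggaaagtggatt
The hexamer begins 22, 39 and 25 bases before the start in this order. A run of 62 bases around it is the same in all 3: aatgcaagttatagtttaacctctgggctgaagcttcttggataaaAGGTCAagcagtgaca. On either strand, AGGTCA occurred in 11 of 42 promoters of the 36 member genes found in the RefSeq table, against 16.3% of 32851 promoters. The inverted repeat of AGGTCA spaced by 1 base, which FXR is known to bind, and the HNF1 palindrome were in 0 member promoters (0.00913% of all promoters each). The Ah receptor core TNGCGTG was in 5 member promoters (5.07% of all) and the antioxidant core TGACNNNGC in 2 (12.4% of all). A match describes letters and not binding.

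Among the sulphotransferases, 6 of 11 genes passed the filter. Sult1d1, which sulphates amines and phenols, read 962 and 1161.1 in Sham_Vehicle, 829.1 and 711.7 in BDL_Vehicle, and 714.1 and 860.3 in BDL_GW4064. All 4 ligated arrays lay below both sham arrays. Its fitted log2 fold change was -0.46 ± 0.16 (SE) after ligation and -0.43 ± 0.16 for BDL_GW4064 against Sham_Vehicle (limma adjusted p = 0.751 and 0.266), and its second probe set gave -0.66 and -0.57. The value against Sham_Vehicle was -0.21 with the array set in the fit. Sult1c2 read 82.8 and 45.5 in Sham_Vehicle, 43.2 and 26.4 in BDL_Vehicle, and 29.2 and 22.3 in BDL_GW4064. Both BDL_GW4064 signals lay under 37.1, the signal at the filter, which is a level at least 1.59-fold lower than in Sham_Vehicle. As this gene passed the filter only through Sham_Vehicle, the fold is a description and no p is given. Sult1a1, a phenol sulphotransferase, read 47.6 and 49.5 in Sham_Vehicle, 45.5 and 31.5 in BDL_Vehicle, and 52.9 and 87 in BDL_GW4064. The GW4064 arrays were the highest, and the log2 fold change against BDL_Vehicle was 0.78 ± 0.31 (SE, limma adjusted p = 0.605) and 0.44 without BDL_GW4064 replicate 2. Sult1b1, the family's gene with the highest mean signal, read 1171.9 and 1362.8, 1131.2 and 1307.5, and 1119.7 and 982.9 in the same order of groups. Sham_Vehicle and BDL_Vehicle overlapped, and both BDL_GW4064 arrays lay below them. Sult2b1, which sulphates cholesterol and related sterols, ranged from 1022.5 to 1439.2 and was above sham in all 4 ligated arrays. Sult5a1 ranged from 20.5 to 72.4, with its lowest signals in BDL_Vehicle.

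The Ugt2 genes Ugt2b34, Ugt2b1, Ugt2b5, Ugt2b37, Ugt2a3 and Ugt2b38 lie beside Sult1b1, Sult1d1 and Sult1e1: these 9 members are in a run of 13 protein-coding genes on chromosome 5 in the RefSeq order of GRCm38.p6. Of these 9, 5 passed the filter (Ugt2b34, Ugt2b5, Ugt2a3, Sult1b1 and Sult1d1). All 5 had lower signals in both BDL_GW4064 arrays than in both Sham_Vehicle arrays. Of all tested genes, 24% were lower without overlap in that comparison. A run of 6 coding genes on chromosome 3 holds the 4 Adh members.

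Among the alcohol dehydrogenases, Adh1, Adh4 and Adh5 passed the filter, and all 3 read higher in BDL_GW4064 than in BDL_Vehicle with no overlap, as did 19.1% of all genes. Adh4, which oxidises retinol and other alcohols, read 46.3 and 86.1 in Sham_Vehicle, 34.6 and 61.7 in BDL_Vehicle, and 135.1 and 138 in BDL_GW4064. The BDL_GW4064 arrays lay above the other 4, which overlapped. The log2 fold change was 1.48 ± 0.35 (SE) against BDL_Vehicle and 1.06 ± 0.35 against Sham_Vehicle (limma adjusted p = 0.32 and 0.231). With the array set in the fit the value against Sham_Vehicle was 0.29, and it was 0.64 without Sham_Vehicle replicate 1. Adh1, which oxidises ethanol and retinol, read 1265.5 and 2621.6 in Sham_Vehicle, 689.8 and 1261.5 in BDL_Vehicle, and 1591.1 and 1788.2 in BDL_GW4064. BDL_Vehicle was the lowest group, and its replicate 2 lay just under Sham_Vehicle replicate 1. Fitted log2 fold changes were -0.96 ± 0.36 (SE) after ligation and 0.85 ± 0.36 with GW4064 (limma adjusted p = 0.751 and 0.66). The value after ligation was -1.49 without Sham_Vehicle replicate 1, -0.44 without Sham_Vehicle replicate 2 and -0.53 without BDL_Vehicle replicate 1. The value with GW4064 was 0.42 without BDL_Vehicle replicate 1 and 1.29 without BDL_Vehicle replicate 2. Adding the array set to the main fit gave 0.42, the same estimate as without BDL_Vehicle replicate 1. The 6 annotated mesenteric adipose markers summed to 344.8 and 731.2, 223.8 and 531.8, and 469.6 and 1718 in the same order of arrays, low and high in the same arrays of each group as Adh1; their part in the result was not tested. Adh5, the glutathione-dependent formaldehyde dehydrogenase, ranged only from 446.6 to 517.2.

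The promoter of Adh4 (GRCm38.p6, chr3:138415247-138415546, plus strand, RefSeq) is shown because this gene had the largest log2 fold change with GW4064 among the Adh genes. It holds AGGTCA 2 times, in capitals, beginning 133 and 11 bases before the start.
Adh4: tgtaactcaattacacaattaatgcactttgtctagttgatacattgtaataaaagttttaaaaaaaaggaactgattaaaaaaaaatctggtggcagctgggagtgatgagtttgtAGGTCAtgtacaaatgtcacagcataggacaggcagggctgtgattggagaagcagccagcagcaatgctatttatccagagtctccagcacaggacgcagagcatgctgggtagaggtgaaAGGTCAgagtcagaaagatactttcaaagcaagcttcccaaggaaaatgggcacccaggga

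Of 17 Aldh genes, 14 passed the filter. Aldh1a3, which makes retinoic acid from retinal, read 22.5 and 60.6 in Sham_Vehicle, 40.1 and 33 in BDL_Vehicle, and 171.7 and 101.2 in BDL_GW4064. Both BDL_GW4064 arrays lay above the other 4, which lay around the signal at the filter. Both of its tested probe sets passed only through BDL_GW4064, so no fold change or p is given as a result, and the second probe set, with 64.2 and 44.6 in BDL_GW4064 and 28.7 to 41 elsewhere, is no independent support. The related Aldh1a1 ranged from 1433.2 to 1858.6 with overlapping groups, and Aldh1a7 read 350.7 and 303.4 in BDL_Vehicle against 460.2 and 367 in BDL_GW4064.

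Aldh1b1, a mitochondrial aldehyde dehydrogenase, read 2086.3 and 2302.4 in Sham_Vehicle, 1681.4 and 1803.4 in BDL_Vehicle, and 2012.3 and 2054.9 in BDL_GW4064. BDL_Vehicle was the lowest group without overlap, with a log2 fold change of -0.33 ± 0.11 (SE) after ligation (limma adjusted p = 0.751). Aldh1l1, the formyltetrahydrofolate dehydrogenase, read 806.3 and 843.5, 823.9 and 948.7, and 1088.7 and 1098.6 in the same order. Its log2 fold change was 0.31 ± 0.12 (SE) against BDL_Vehicle and 0.41 ± 0.12 against Sham_Vehicle (limma adjusted p = 0.636 and 0.215). The mean with its second probe set, which read 17.5 to 27.8 and failed the filter, gave 0.02 and 0.15, and the value against Sham_Vehicle was 0.20 with the array set in the fit. Aldh16a1 read 352 and 373.9 in Sham_Vehicle, 408 and 562.6 in BDL_Vehicle, and 611.8 and 451.3 in BDL_GW4064, all 4 ligated arrays above sham. Against Sham_Vehicle, Aldh16a1 in BDL_GW4064 gave 0.53 ± 0.21 (SE, limma adjusted p = 0.279), but 0.07 with the array set in the fit and 0.31 without BDL_GW4064 replicate 1. Aldh18a1, the enzyme that makes pyrroline-5-carboxylate for proline synthesis, read 1064.9 and 1261.1, 1067.2 and 743.2, and 863.3 and 766. Its log2 fold change against Sham_Vehicle was -0.51 ± 0.19 (SE, limma adjusted p = 0.266), and 0.011 once the array set was added. Aldh9a1, an enzyme of carnitine synthesis and the Aldh gene with the highest mean signal, ranged from 1916.2 to 2817.8 with overlapping groups. Its second tested probe set read 1929.7 and 1961.7 in Sham_Vehicle, 1949.5 and 2354.6 in BDL_Vehicle, and 2110 and 2009.2 in BDL_GW4064. For BDL_GW4064 against Sham_Vehicle its fitted value had the opposite sign to that of the first. The others that passed were the acetaldehyde dehydrogenase Aldh2 (763.4 to 879.3), the fatty aldehyde dehydrogenase Aldh3a2 (518.1 to 720), Aldh3b1 (101.7 to 171.8), Aldh4a1 of proline breakdown (72.8 to 119.5), Aldh6a1 of valine breakdown (63.4 to 169.6) and Aldh7a1 of lysine breakdown (36.5 to 58.2). With Aldh1a1 and Aldh1a7 they had no unadjusted p under 0.05 on the probe set that represents them. Other tested probe sets of Aldh2 were dimmer and less even. The first read 155.3 and 55.9 in Sham_Vehicle, 44.4 and 27.5 in BDL_Vehicle, and 47.4 and 146.6 in BDL_GW4064. It was lowest in BDL_Vehicle without overlap, at signals near the filter. The next read 115.9 and 58.8, 61.2 and 29.1, and 39.6 and 110 in the same order, with overlap.

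The flavin monooxygenase Fmo5, known as an oxygenase of ketones, was the Fmo gene with the highest mean signal. It read 1195.3 and 1483.4 in Sham_Vehicle, 769.3 and 1130.8 in BDL_Vehicle, and 1724.3 and 1413.4 in BDL_GW4064. BDL_Vehicle lay below both other groups, which overlapped. The log2 fold change was -0.51 ± 0.21 (SE) after ligation and 0.74 ± 0.21 with GW4064 (limma adjusted p = 0.751 and 0.405), and the second probe set gave -0.57 and 0.74. After ligation the value was -0.24 without BDL_Vehicle replicate 1 and -0.79 without BDL_Vehicle replicate 2. The fit with the array set gives that same -0.79 and is no separate check. With GW4064 the value was 0.46 without BDL_Vehicle replicate 1, which is also the estimate with the array set in the fit. Fmo1, Fmo2 and Fmo4, neighbours of each other on chromosome 1, overlapped between groups in all 3 comparisons.

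The epoxide hydrolases differed from each other. Ephx1, the microsomal enzyme that opens epoxides of drugs and pollutants, read 52.8 and 44.7 in Sham_Vehicle, 48 and 46.6 in BDL_Vehicle, and 77.8 and 108.2 in BDL_GW4064. Fitted log2 fold changes were 0.90 ± 0.24 (SE) against BDL_Vehicle and 0.87 ± 0.24 against Sham_Vehicle (limma adjusted p = 0.394 and 0.203). Ephx2, the soluble enzyme that acts on fatty acid epoxides, ranged from 668.4 to 939.4 with overlapping groups.

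**Figure D2:**
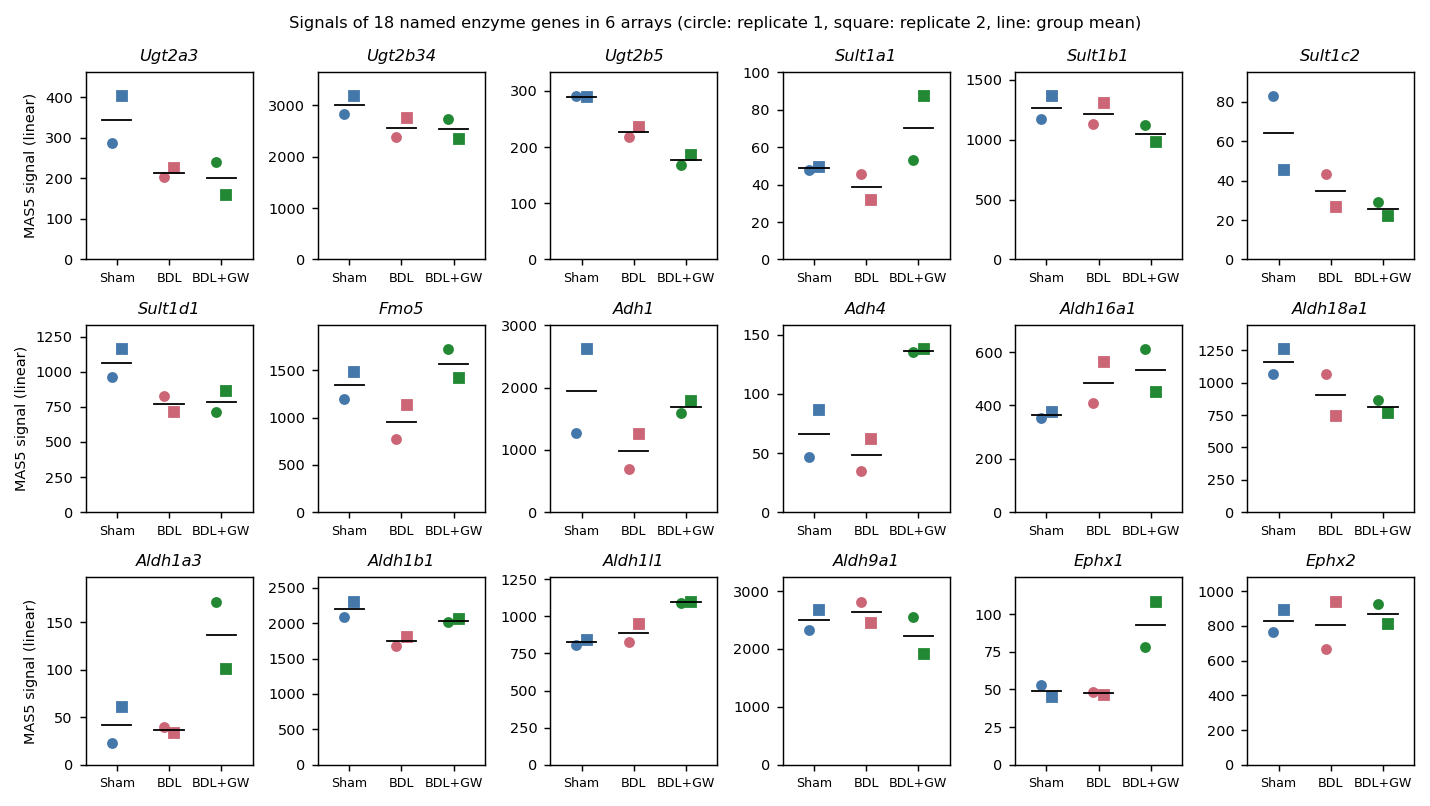
MAS5 signal (vertical axis, linear, from 0) of the 18 named genes in the 3 groups, with 1 point per array and a line at the group mean. Ugt2b5 steps down over the 3 groups, and the BDL_GW4064 points of Adh4, Aldh1a3 and Ephx1 lie above all others.

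**Figure D3:**
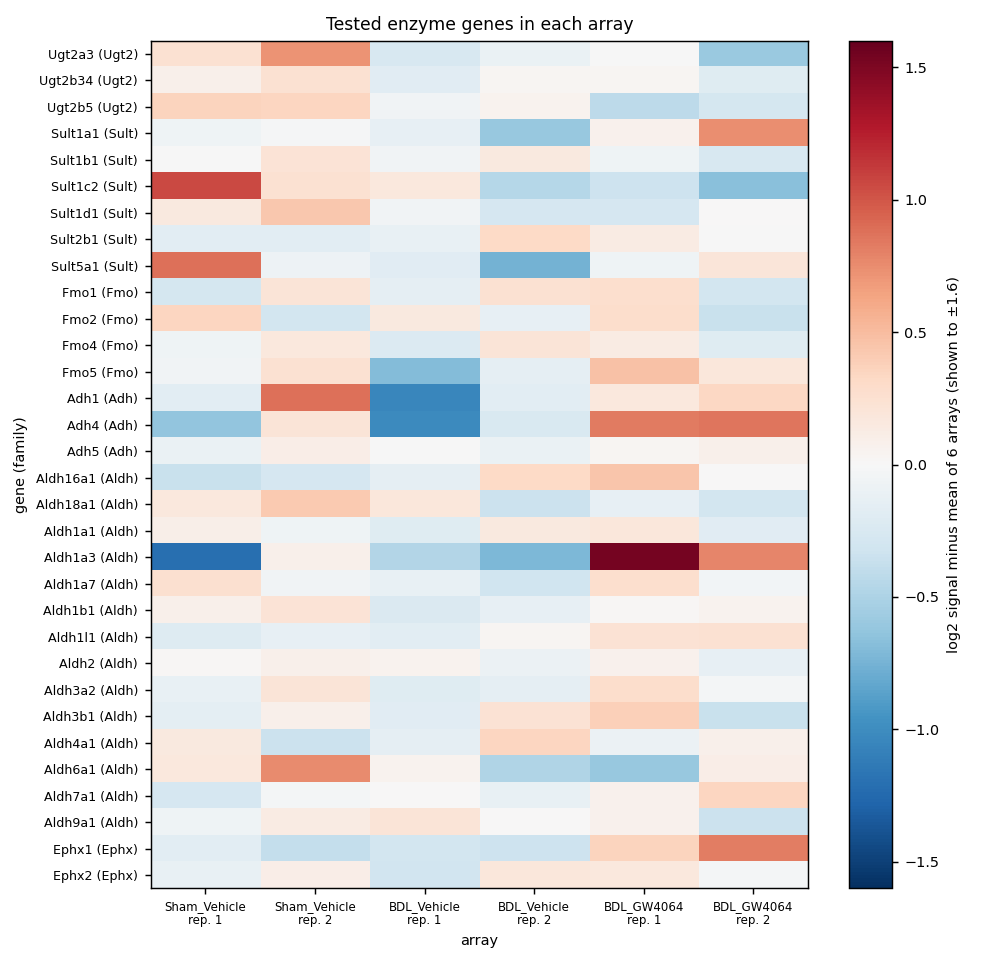
Log2 signal of the 32 tested genes in each array minus the mean of the 6 arrays (colour), ordered by family. Adh1 and Adh4 are lowest in BDL_Vehicle replicate 1, and Aldh1a3 is highest in BDL_GW4064 replicate 1.

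Markers of several other cell types were high in the arrays where some enzyme genes were high under GW4064. All 11 fibroblast and matrix markers were higher in BDL_GW4064 than in BDL_Vehicle without overlap, against 19.1% of all genes. Their median log2 fold change was 1.51, and none was at 0. Of them 1, Fn1, passed the adjusted threshold (limma adjusted p = 0.0094), where 0.0516% of all probe sets did. Fitted values were higher for 50.4% of all genes in this comparison. The 9 smooth muscle markers were also all higher (median 2.11, 0 passed), as were 5 of 5 tested endothelial markers (median 0.79, 0 passed), 4 of 4 tested adipose markers (median 1.62, 0 passed) and 7 of 9 macrophage and dendritic cell markers (median 0.42, 0 passed). The adipose median was 0.64 with the array set in the fit. Against Sham_Vehicle all 9 macrophage and dendritic cell markers were higher, C1qc with a limma adjusted p of 0.0791. The median of the enterocyte markers lay between -0.08 and 0.09 of the mean of all arrays in every array, but single markers went both ways. Lactase, Lct, read 2652.8 and 3581.5 in Sham_Vehicle, 1935.1 and 2005.7 in BDL_Vehicle, and 2030.3 and 1493 in BDL_GW4064 (limma adjusted p = 0.742 after ligation and 0.176 for BDL_GW4064 against Sham_Vehicle). The peptide transporter Slc15a1 read 590.4 and 628.9, 521.9 and 438.8, and 376.6 and 274.1 in the same order (limma adjusted p = 0.176 for BDL_GW4064 against Sham_Vehicle). Both were lower without overlap in both ligated groups than in sham, as were Ugt2b5, Ugt2a3, Ugt2b34 and Sult1d1. The enterocyte markers Slc5a1 and Krt20 were higher than sham without overlap in both ligated groups. Of the 16 enterocyte markers, 5 were lower and 2 higher without overlap after ligation (19.7% and 18.1% of all genes). For BDL_GW4064 against Sham_Vehicle 4 were lower and 4 higher (24% and 25% of all genes). The median of the fibroblast markers was high in both BDL_GW4064 arrays. Single markers differed: Lum read 32.9 in BDL_GW4064 replicate 1 against 42.5 and 33.3 in Sham_Vehicle. Adh4, Aldh1a3 and Ephx1 were also high in both arrays. They were named for high BDL_GW4064 signals, so their match with these markers was set by the choice and is no support. Smooth muscle markers were high in BDL_GW4064 replicate 2 alone, where Sult1a1 and Ephx1 were higher than in replicate 1 and Aldh1a3 was lower. The part of these markers in the enzyme results was not tested.

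**Figure D4:**
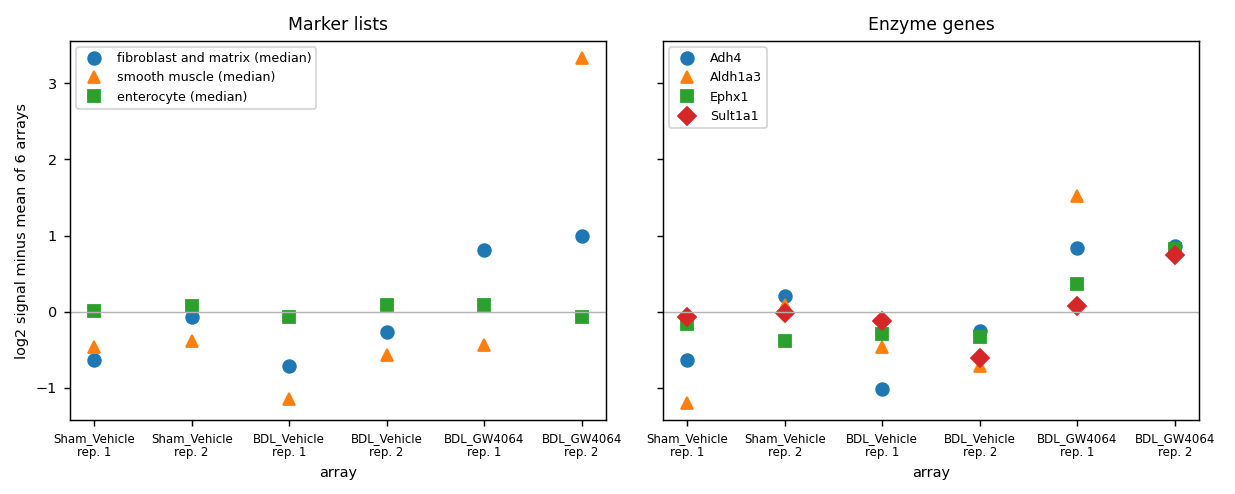
Median log2 deviation of 3 marker lists from the mean of the 6 arrays (left) and the deviation of 4 enzyme genes (right), by array. The fibroblast median and Adh4, Aldh1a3 and Ephx1 are above 0 in both BDL_GW4064 arrays, and the smooth muscle median reaches 3.33 in replicate 2. The 4 genes were named for high BDL_GW4064 signals, so their match with the markers was set by the choice.

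The 12 members that failed the filter, with 14 probe sets, read between 0.3 and 38.2: Adh7, Aldh1a2, Aldh3a1, Aldh8a1, Sult1c1, Sult1e1, Sult2a2, Sult3a1, Sult4a1, Ugt2b1, Ugt2b37 and Ugt2b38.

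Genes around these reactions were followed from lists made for them. Among 11 tested genes of cofactor supply, 5 were higher and 6 lower with GW4064. At the adjusted threshold 1 higher and 0 lower genes passed, where 0.0516% of all probe sets did. It was the sulphate transporter Slc26a2, from 1022.2 and 948.3 in BDL_Vehicle to 2032 and 2262.4 (log2 fold change 1.12 ± 0.12, SE, limma adjusted p = 0.0378). The anion exchanger Slc26a3 read 518.3 and 896 against 1823 and 1530.5 (1.29 ± 0.24, SE, limma adjusted p = 0.208). These 2 were the higher genes without overlap (19.1% of all genes), and 3 were lower without overlap (16.7% of all genes): Papss1, Slc35b3 and Bpnt1. Papss1 read 1383.2 and 1198.1 against 988.9 and 1103.7 (-0.30 ± 0.13, SE, limma adjusted p = 0.65). The list's median was -0.03, and -0.13 with the array set in the fit. After ligation 0 of its genes passed (3 higher, 8 lower). Of 7 tested efflux and hydrolysis genes 0 passed in any comparison, with 1 at an unadjusted p under 0.05, the conjugate exporter Abcc2 after ligation (-1.01 ± 0.42, SE, limma adjusted p = 0.751). Of 15 tested receptor and sensor genes 0 passed. With GW4064 10 were lower and 5 higher (median -0.19), and an unadjusted p under 0.05 came with 1 higher and 2 lower genes, against 5.06% and 2.41% of all genes. Nr1h4, which encodes FXR, read 539.8 and 423.8 in BDL_Vehicle and 319.3 and 274.7 in BDL_GW4064 (-0.68 ± 0.20, SE, limma adjusted p = 0.426). The intestinal factor Cdx2 read 934.1 and 1067 against 768.7 and 663.5 (-0.48 ± 0.16, SE, limma adjusted p = 0.523). Nr1i2, which encodes PXR, read 174.5 and 182.1 against 285.9 and 263.4 (0.61 ± 0.16, SE, limma adjusted p = 0.37). For BDL_GW4064 against Sham_Vehicle the counts were 3 higher and 3 lower, against 7.15% and 7.08% of all genes. Of 14 tested retinoid genes 0 passed. After ligation an unadjusted p under 0.05 came with 1 higher and 2 lower genes, against 2.95% and 3.06% of all genes. Rdh11, another retinol dehydrogenase, read 224.8 and 185.9 in Sham_Vehicle and 318 and 275.2 in BDL_Vehicle (0.52 ± 0.16, SE, limma adjusted p = 0.751). The retinol dehydrogenase Rdh9 read 846.4 and 1118.7 in Sham_Vehicle, 639 and 629.5 in BDL_Vehicle, and 857.5 and 882.5 in BDL_GW4064 (after ligation -0.61 ± 0.15, SE, limma adjusted p = 0.66).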

How the data were processed

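Affymetrix Mouse Genome 430A 2.0 arrays of 6 ileum samples were analysed from a table of 22690 probe sets. The authors deposited MAS5 intensity values, per the submitters' processing notes; version, settings and detection calls are not given in the sources used here. Every array had a trimmed mean (2% at each end) of 200.1. Symbols came from the platform annotation and 44 of 44 member genes were found in RefSeq (GRCm38.p6) with 0 differing symbols. After 64 control probe sets were removed, the dimmest 40% of probe sets, ranked on mean log2(signal + 4), were left out, which left 13575; that filter lies at a signal of 37.1, used as the floor. Fold changes on the log2(signal + 4) scale understate the change of genes with low signal. Groups were compared with limma 3.58.1 (R 4.3.3), 1 mean per group, all 6 arrays, a variance prior that followed signal (3 residual and 4.71 prior degrees of freedom), and Benjamini-Hochberg adjustment over 13575 probe sets at 0.05. Simulated with 200 changed probe sets, the ligation comparison found 42.5% of the 2-fold changes, 90.3% of those of 4-fold and 98.5% of those of 8-fold. The simulated noise was independent between arrays and held no array set split and no difference in tissue content. These shares therefore do not give what the real arrays could find. Array signals carry no read depth; precision is limited by having 2 arrays in a group. Members, lists and the naming rule were chosen with earlier results of these data known. The rule names the gene with the highest mean signal of each family and up to 8 genes per direction and comparison with no overlap and an unadjusted p under 0.05. Lists are described by counts and medians, without a set test. Promoters were searched for 5 motifs on both strands. The alternatives tried are in the closing section. Same-numbered arrays had deviations correlating at 0.04, 0.09 and -0.12, and the main fit used no pairing by replicate number. Such low correlations cannot show that same-numbered arrays were handled apart. Adh1 was lower in replicate 1 of each group, and its SE for ligation was 0.21 with the replicate number as a block, against 0.36 in the main fit.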

Additional observations from a re-analysis of the deposited data

How the results depend on the processing

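The count of member probe sets that passed the adjusted threshold was 0 in all 3 comparisons, and was also 0 with a pseudocount of 1 or 16, with median centring or quantile normalisation, with a filter at 60% or none, with a robust prior, without the trend on signal, with array weights, when the fit used only the 4 arrays being compared, when the array set was added to the fit, and when each of the 6 arrays was left out in turn. With the replicate number as a block (the replicate block) it was 0 as well, as it was with the numbers crossed in BDL_GW4064, an alternative chosen after seeing the data for the GW4064 comparison. The smallest adjusted p over these alternatives was 0.278 for ligation, 0.178 for GW4064 in ligated mice and 0.137 for BDL_GW4064 against Sham_Vehicle. Counts at an unadjusted p under 0.05 ranged from 4 to 11, 4 to 10 and 3 to 15, and member medians, for which the mean of a gene's probe sets was tried too, from -0.19 to -0.01, -0.04 to 0.20 and -0.19 to 0.10. Of the 54 pairs of a named gene and a comparison, 24 had an unadjusted p under 0.05, and 1 of these turned sign under any alternative: Aldh18a1 against Sham_Vehicle, 0.011 after the array set was added; the cause was not tested. For the probe set that represents a named gene, fitted values are therefore printed only among these 24 pairs, a choice made after the sign changes were seen. Of the other 30, 17 turned sign under at least 1 alternative. The 24 pairs were picked by their p in these same arrays, and none of them overlapped between its groups. Leaving out 1 array could therefore not turn their sign, so the few turns are no support for them. Among the 24 are pairs of Aldh1a3 and Sult1c2, which passed the filter only through 1 group. Signals near 37.1, as for Sult1c2, Sult1a1, Aldh1a3, Ephx1 and Adh4, lie close to background and limit the precision of their folds.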
